A study of Mus musculus with 10 samples.

Results

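The Sprr genes (small proline-rich proteins) and the Lce genes (late cornified envelope proteins) encode precursors of the cornified envelope, the protein shell that replaces the plasma membrane of surface keratinocytes. The members were all genes of the deposited count table whose symbol starts with Sprr or Lce followed by a digit and whose counts are not blank, with the pseudogenes Sprr2c-ps and Sprr2j-ps left out. They number 36 of 49164 genes with values. The 15 Sprr genes divide into 2 Sprr1, 11 Sprr2, 1 Sprr3 and 1 Sprr4, and the 21 Lce genes into 14 Lce1, 6 Lce3 and 1 Lce6. The libraries were made from polyadenylated RNA of mouse gingival epithelium, the lining of the gum. It was peeled off after Dispase treatment and divided into the buccal side (facing the cheek, 5 libraries) and the palatal side (facing the palate, 5 libraries). The labels name no strain, genotype, age, sex or treatment, and they do not say whether libraries of a side came from separate animals, and p-values therefore cover just the variation seen among these libraries, which may be technical. The question addressed was whether the epithelium of the buccal and palatal sides differs in these envelope precursors.

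As keratinocytes move toward the surface, transglutaminases crosslink precursor proteins onto a scaffold under the membrane. Sprr proteins act as bridges between loricrin and other precursors, and Lce proteins are deposited late, in the outermost living layers. Sprr1, Sprr2 and Sprr3 proteins are known from oral and other moist stratified linings and from stressed or inflamed epithelium, Lce1 proteins from epidermis, and Lce3 proteins from inner lining epithelium and from wounded skin. Both families lie in the epidermal differentiation complex, a gene cluster on mouse chromosome 3.

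Total counts were 29317011 to 37234192 in the buccal and 25868777 to 35583168 in the palatal libraries. The 7 oral keratinocyte markers (Krt4, Krt5, Krt6a, Krt13, Krt14, Krt15 and Krt76) were all detected and together stood at 121370 to 141707 CPM (counts relative to the library total after TMM scaling) in the buccal and 105081 to 115823 CPM in the palatal libraries, which matches the labelled tissue. These sums hide opposite differences. Krt4 went from 57940 buccal to 13842 CPM palatal on average, and Krt13 from 58433 to 34485 CPM. Krt76 went from 1976 to 37441 CPM, and Krt14, Krt15 and Krt6a were also higher in palatal, while Krt5 differed little (4497 and 4299 CPM). The sum of 5 cornified epidermis markers was 4555 to 6595 CPM buccal and 17057 to 20503 CPM palatal. Krt10 made up most of it on the buccal and nearly all of it on the palatal side (4006 and 18333 CPM on average). Krt1, the next in level, went the other way (1377 and 364.9 CPM on average). The sums of 7 Langerhans cell and macrophage markers were 150.2 to 246.3 and 60.8 to 79.1 CPM, those of 7 T cell markers 4.07 to 8.07 and 1.72 to 2.28 CPM, and those of 6 neutrophil markers 34.5 to 92.7 and 19.7 to 48.4 CPM, buccal and palatal in turn. Most of the neutrophil sum was S100a8 (32.0 and 16.3 CPM on average) and S100a9 (20.1 and 15.8 CPM), with Cxcr2 next. Csf3r, Mpo and Ly6g were each at most 0.23 CPM in any library, so the sum rests on few of its markers. Itgam, of the macrophage list, was higher in palatal (log2 fold change 2.70 ± 0.18), against its sum. Fibroblast markers summed to 6.78 to 12.8 CPM buccal and 70.1 to 89.0 CPM palatal, where Dcn alone stood at 73.2 CPM on average. Hair follicle markers summed to at most 1.32 CPM in any library, with Krt33b and Krt81 at 0 in all, gland markers to at most 59.2 CPM with Prol1 at 0, melanocyte markers to at most 0.587 CPM with Tyrp1 at 0, muscle markers to at most 6.73 CPM and endothelial markers to at most 7.60 CPM. The part of these markers in the results below was not tested. In bulk libraries, fewer cells of a type and less RNA per cell cannot be told apart.

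The coding starts show how alike some of the genes are over their first coding bases. They are shorter than a read, so how far reads can be assigned to 1 copy was searched over whole transcripts, as given below. All coding starts shown are from GENCODE M21 transcripts (GRCm38.p6), from base 1 of the start codon to base 72 in Sprr and to base 48 in Lce genes. Capitals mark bases that differ from the first sequence of each set. Sprr1b differs from Sprr1a at 12 and Sprr3 at 17 of these positions.
Sprr1a: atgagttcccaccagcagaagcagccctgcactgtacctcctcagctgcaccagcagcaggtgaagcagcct
Sprr1b: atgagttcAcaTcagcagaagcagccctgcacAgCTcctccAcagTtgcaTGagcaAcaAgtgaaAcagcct
Sprr3: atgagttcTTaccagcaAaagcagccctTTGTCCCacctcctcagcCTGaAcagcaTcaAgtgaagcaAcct

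In the Sprr2 set, Sprr2i differs from Sprr2d at 1 position, Sprr2a3 at 9 and Sprr2a1 at 8, and the sequence holds the proline-rich, glutamine-rich start that is typical of the subfamily.
Sprr2d: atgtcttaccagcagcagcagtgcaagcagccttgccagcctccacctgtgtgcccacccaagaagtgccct
Sprr2i: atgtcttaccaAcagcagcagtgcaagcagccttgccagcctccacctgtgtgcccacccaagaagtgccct
Sprr2a3: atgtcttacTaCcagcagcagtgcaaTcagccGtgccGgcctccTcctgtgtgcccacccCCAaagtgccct
Sprr2a1: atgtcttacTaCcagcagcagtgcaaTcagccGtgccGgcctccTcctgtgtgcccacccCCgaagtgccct

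In the Lce set, Lce1l differs from Lce1d at 3 positions.
Lce1d: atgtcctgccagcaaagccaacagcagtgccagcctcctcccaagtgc
Lce1l: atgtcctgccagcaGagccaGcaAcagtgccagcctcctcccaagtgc

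Over the whole coding sequence, Sprr2a1 and Sprr2a2 are identical, and Sprr2a3 matches them at 98.8% of bases. Lce3e and Lce3f match at 294 of 297 bases. Of all stretches of 122 bases, the read length, in the Sprr2a1 transcripts, 91.6% were also found exactly in another gene, with 91.2% for Sprr2a2, 27.8% for Sprr2a3, 40.4% for Lce3f, 33.5% for Lce3e, 20.4% for Lce3c and 18.1% for Lce3d. No such stretch was shared for the other 29 members, so by this measure the division of reads is uncertain for the 3 Sprr2a copies and these 4 Lce3 genes.

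**Figure D1:**
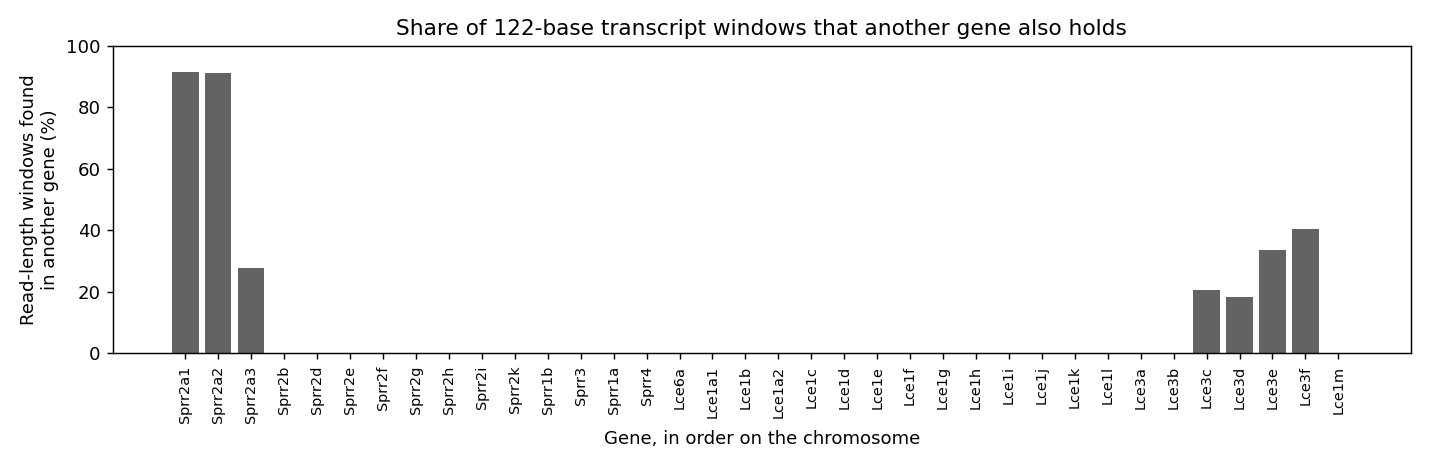
Share of 122-base stretches of each member's transcripts that an exact search also found in another gene (y axis, percent), with the 36 members in gene order (x axis). Bars above 0 belong to the 3 Sprr2a copies, of which Sprr2a1 stands at 91.6%, and to Lce3c to Lce3f, of which Lce3f is highest at 40.4%.

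The 2 families differed between the sides in different ways. Of the 14 Sprr genes tested, 0 were higher and 11 were lower in palatal epithelium. Sprr2a1 and Sprr2a2 are among the 11 but could pass the filter on low counts only through the buccal side, and without them 9 of 12 were lower, with a median log2 fold change (palatal minus buccal) of -1.50. Of the 19 Lce genes tested, all 13 Lce1 genes were higher, with a median of 0.95, and all 6 Lce3 genes were lower, with a median of -1.08. These calls are from edgeR's quasi-likelihood test at an adjusted p of 0.05 over all 14062 genes tested, of which 38.9% passed in either direction, 18.7% as higher and 20.3% as lower in palatal, and the median over them was 0.01. The 10 libraries showed no overlap between the sides in 7 of these 12 Sprr and 17 of the 19 Lce genes, against 28.3% of all genes tested. The filter on low counts required about 0.334 CPM in 5 libraries, and Sprr2a1 and Sprr2a2 were under that level in every palatal library.

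**Figure D2:**
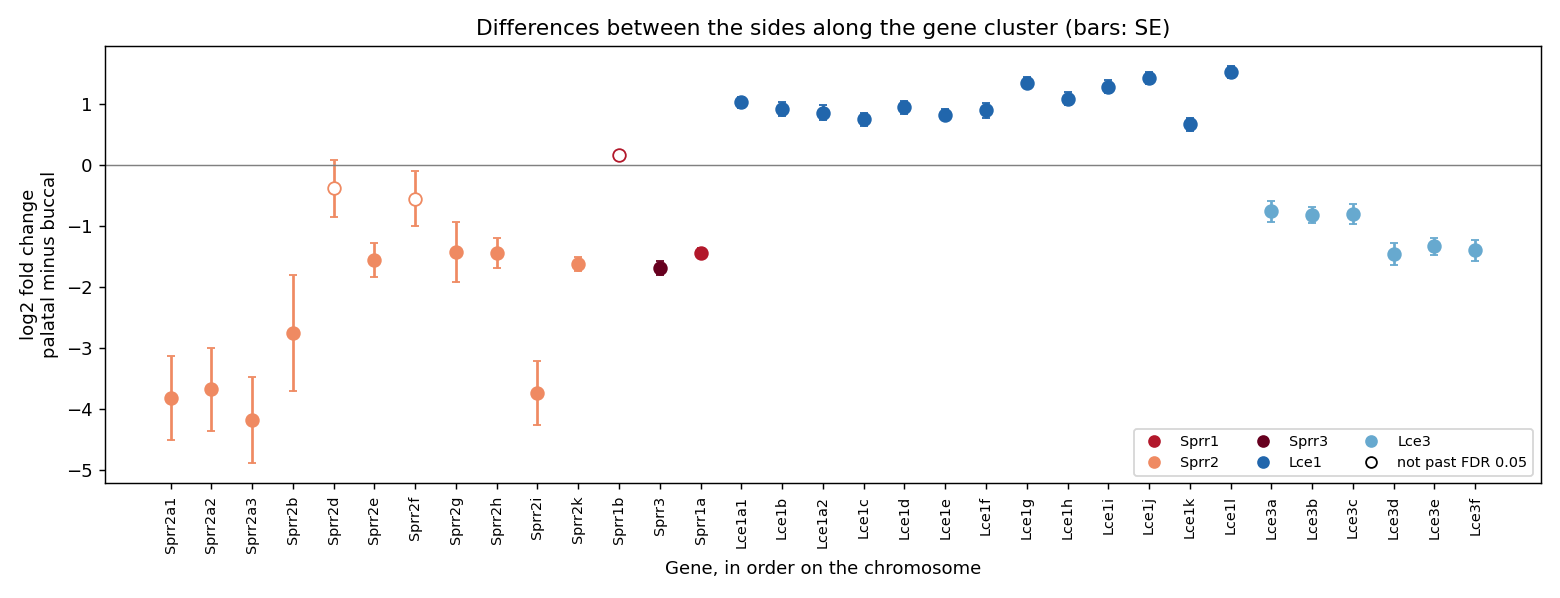
Log2 fold change of each of the 33 members tested (y axis, palatal minus buccal, bars are 1 standard error), in gene order along the chromosome (x axis), coloured by subfamily, with open circles for genes that did not pass an adjusted p of 0.05. The 13 Lce1 genes lie between 0.67 and 1.53, the 6 Lce3 genes between -1.45 and -0.76, and 9 of the 11 Sprr2 genes are filled and below 0. Among these 9 are Sprr2a1 and Sprr2a2, which could be tested only by being lower in palatal, and without them it is 7 of 9.

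Sprr1a and Sprr1b, genes of the same subfamily with Sprr3 between them on the chromosome and known as bridging precursors of squamous epithelium, did not move alike. Sprr1a stood at 1939, 1652, 1984, 1878 and 1698 CPM in buccal libraries 1 to 5 and at 629.3, 642.4, 663.2, 676.4 and 762.2 CPM in palatal libraries 1 to 5. Every buccal library was above every palatal library, by a ratio of means of 2.71 (1830 ± 147.5 against 674.7 ± 52.2 CPM, SD, n = 5 each). The log2 fold change was -1.44 ± 0.08 (SE, edgeR adjusted p = 6.51e-09). Sprr1b stood at 185.1, 240.0, 230.4, 218.4 and 227.8 CPM buccal and at 241.0, 268.9, 224.8, 243.2 and 250.5 CPM palatal. Its ranges overlapped, and its log2 fold change of 0.16 ± 0.08 did not pass (edgeR adjusted p = 0.124). Within a library, the log2 ratio of Sprr1a to Sprr1b was 3.05 ± 0.23 buccal and 1.45 ± 0.14 palatal (SD, n = 5 each), a difference of -1.60 with no overlap (two-sided exact permutation of the libraries between the sides, p = 0.00794, the smallest it can give, adjusted over 14 ratios 0.0139).

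Sprr3, a single-copy gene known from esophagus and other lining epithelium, had the highest level per transcript length of all members on both sides. It stood at 4538, 3977, 5589, 5474 and 4996 CPM in the buccal and at 1421, 1458, 1483, 1390 and 1868 CPM in the palatal libraries. The sides did not overlap, and the lowest buccal library was above the highest palatal library, palatal 5. The ratio of means was 3.23 (4915 ± 669.6 against 1524 ± 195.3 CPM, SD, n = 5 each), with a log2 fold change of -1.69 ± 0.11 (edgeR adjusted p = 3.40e-08). Per kilobase of exon, Sprr3 stood at 4022 CPM buccal and 1247 CPM palatal, followed by Sprr1a at 2270 and 837.1 CPM per kilobase. Next in order was Lce3e at 445.8 CPM per kilobase on the buccal side but Lce1d at 407.4 CPM per kilobase on the palatal side. The log2 ratio of Sprr1a to Sprr3 was -1.42 ± 0.16 buccal and -1.17 ± 0.09 palatal (SD, n = 5 each), a difference of 0.25 with overlapping ranges (exact permutation p = 0.0238, adjusted 0.0303). Without buccal 3, 4 or 5 or without palatal 1, 2, 3 or 4, which leaves fewer assignments to permute, the difference was 0.21 to 0.25 and did not pass (adjusted exact permutation p = 0.0606 each).

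**Figure D3:**
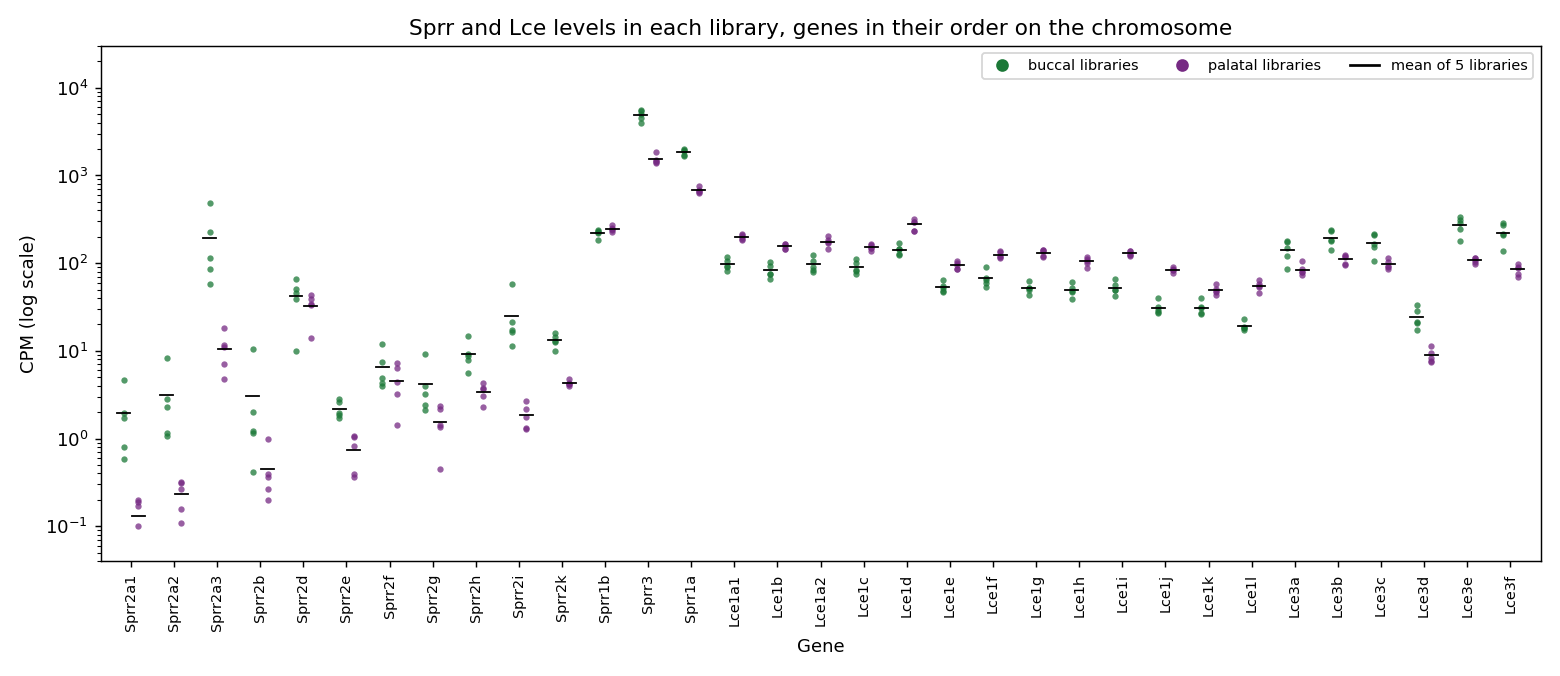
CPM of the 33 members tested in each library (y axis, log scale; points are libraries, lines the means of 5), in gene order (x axis), buccal in green and palatal in purple; palatal 5 has 0 counts of Sprr2a1 and no point there. Sprr3 and Sprr1a are the highest pair on both sides, and the buccal points of Lce1 genes lie below the palatal ones while those of Lce3 genes lie mostly above.

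The Sprr2 genes, whose products are known as crosslinked bridging precursors and as genes induced in inflamed or injured epithelium, gave both the largest and some of the smallest differences among the members tested. All 11 were tested. Without Sprr2a1 and Sprr2a2, which had to be lower in palatal to be tested at all, 7 of 9 were lower and 2 did not pass, and the median log2 fold change was -1.55, with a range of -4.18 to -0.38. Most of them also varied several-fold among libraries of a side. Sprr2a3 stood at 224.3, 482.6, 58.2, 86.7 and 114.4 CPM in buccal libraries 1 to 5 and at 11.5, 18.4, 11.2, 7.01 and 4.80 CPM in palatal libraries 1 to 5. The sides did not overlap, although the highest buccal library was 8.29 times the lowest. The log2 fold change was -4.18 ± 0.71 (edgeR adjusted p = 0.00152), and without buccal 2 it was -3.51 (adjusted p = 9.62e-04 by edgeR). Summed over the 3 Sprr2a copies the level was 198.3 ± 178.0 CPM buccal and 10.9 ± 5.35 CPM palatal (SD, n = 5 each), a ratio of 18.1. The sum does not depend on how counted reads were divided among the copies, but whether reads that fit several copies were counted at all is not given in the sources used here.

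Sprr2d, the next in level, stood at 50.7, 66.3, 38.8, 10.0 and 45.7 CPM buccal and at 33.3, 42.8, 14.0, 34.0 and 39.3 CPM palatal. Its sides overlapped widely, with 1 low library on each (buccal 4 and palatal 3), and its log2 fold change was -0.38 ± 0.47 (edgeR adjusted p = 0.569). Within a library, the log2 ratio of Sprr2a3 to Sprr2d was 1.99 ± 1.04 buccal and -1.62 ± 0.99 palatal (SD, n = 5 each), so Sprr2a3 had the higher CPM of the pair in all 5 buccal and the lower in all 5 palatal libraries. The difference of -3.61 did not overlap (exact permutation p = 0.00794, adjusted 0.0139). Sprr2a3 made up 58.0% ± 11.9 of all Sprr2 CPM buccal and 18.4% ± 9.14 palatal (SD, n = 5 each).

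Sprr2i, which shares all but 1 of the first 72 coding bases with Sprr2d (shown above), was lower in palatal. It stood at 17.2, 57.3, 11.4, 21.5 and 16.5 CPM buccal and at 2.15, 2.71, 1.32, 1.27 and 1.77 CPM palatal, with no overlap. The log2 fold change was -3.74 ± 0.52 (edgeR adjusted p = 4.03e-04), and without buccal 2, the highest library, it was -3.17. Sprr2k stood at 12.7, 9.91, 13.1, 14.3 and 16.0 CPM buccal and at 4.14, 4.21, 3.97, 4.34 and 4.80 CPM palatal. It was the steadiest Sprr2 gene, with a highest library 1.61 times the lowest on the buccal and 1.21 times on the palatal side, and its log2 fold change was -1.62 ± 0.12 (edgeR adjusted p = 7.82e-08). Sprr2h stood at 8.84, 14.6, 5.57, 7.84 and 9.28 CPM buccal and at 3.74, 4.34, 2.26, 3.03 and 3.68 CPM palatal, with no overlap and a log2 fold change of -1.44 ± 0.24 (edgeR adjusted p = 3.50e-04).

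The other 6 Sprr2 genes were at mean levels of 1.94 to 6.51 CPM buccal and 0.132 to 4.50 CPM palatal. Sprr2e differed by -1.55 ± 0.28 on the log2 scale (edgeR adjusted p = 4.39e-04), with no overlap between the sides. Sprr2f, with 6.51 ± 3.31 CPM buccal and 4.50 ± 2.33 CPM palatal (SD, n = 5 each), differed by -0.55 ± 0.45 and did not pass (edgeR adjusted p = 0.386). Sprr2a2 and Sprr2a1 differed by -3.68 ± 0.68 and -3.82 ± 0.69, and without buccal 2 by -2.93 and -3.23. Their palatal levels rest on 36 and 20 counts over 5 libraries. Sprr2g and Sprr2b passed narrowly, at -1.43 ± 0.49 and -2.75 ± 0.95 (edgeR adjusted p = 0.0418 and 0.0477), with overlapping sides. Buccal 2 held 9.09 CPM of Sprr2g and 10.5 CPM of Sprr2b, against at most 3.96 and 2.02 CPM in the other buccal libraries. Without it the log2 fold changes were -0.93 and -1.43 (edgeR adjusted p = 0.0535 and 0.0264). The call of Sprr2g was also lost without buccal 5 or without palatal 1, 3, 4 or 5 (edgeR adjusted p = 0.0698, 0.0912, 0.0631, 0.0859 and 0.0532), and that of Sprr2b without buccal 1 or 5 or without palatal 1, 3, 4 or 5 (edgeR adjusted p = 0.0503, 0.0627, 0.101, 0.0959, 0.0969 and 0.0946).

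The spread of the Sprr2 genes among libraries of a side was shared by many of them but not by all. Buccal 2 was the highest buccal library for 10 of the 11 Sprr2 genes and the lowest for the remaining one, Sprr2k. It was also the lowest buccal library for Sprr1a, Sprr3, all 6 Lce3 genes and 10 of 13 Lce1 genes. Buccal 3 was lowest for 6 of the 11 Sprr2 genes. Among palatal libraries, palatal 2 was highest for 7 and palatal 3 lowest for 6 of the 11. Buccal 2 also had the highest summed Langerhans cell and macrophage markers (246.3 CPM), neutrophil markers (92.7 CPM) and cornified epidermis markers (6595 CPM) of the buccal libraries. Its summed oral keratinocyte markers (121370 CPM) were the lowest. The summed T cell markers were instead highest in buccal 1 (8.07 CPM). Of the neutrophil list, S100a9 was highest in buccal 5 (28.3 CPM, against 28.0 CPM in buccal 2). The part of these markers in the Sprr2 values was not tested.

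**Figure D4:**
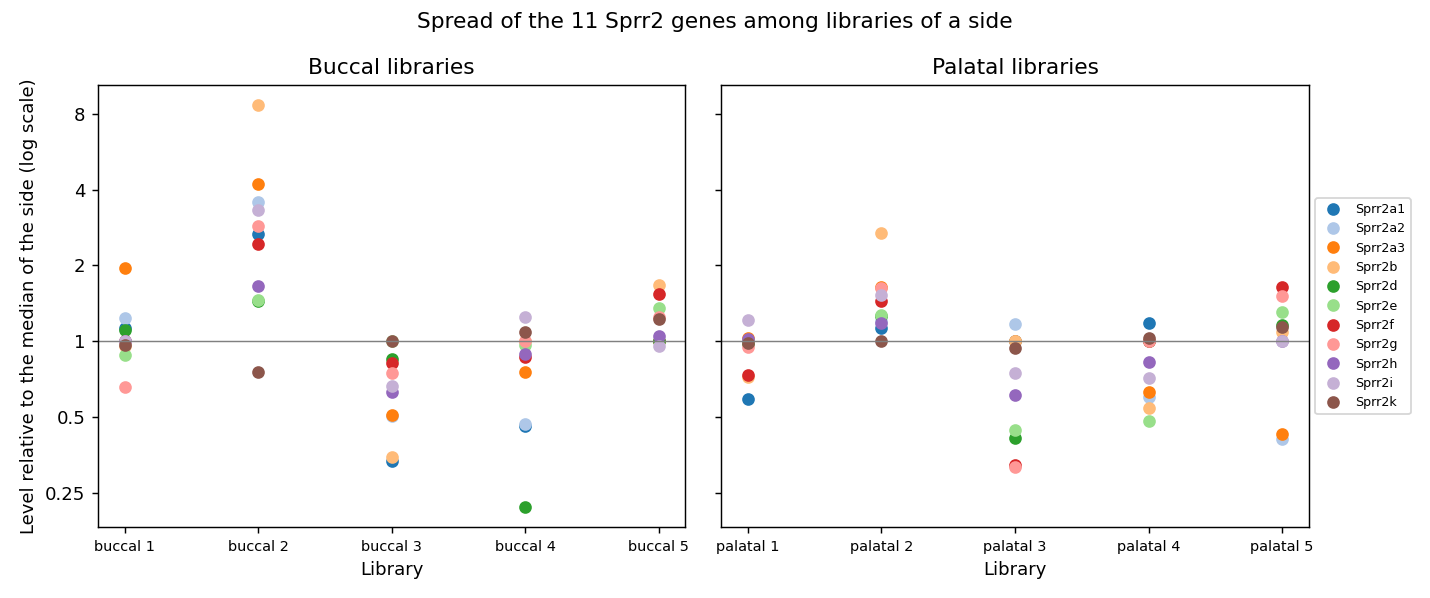
Level of each of the 11 Sprr2 genes in each library relative to its median over the 5 libraries of that side (y axis, log scale; x axis, library), with 1 colour per gene; Sprr2a1 has 0 counts in palatal 5 and no point there. In buccal 2, 10 genes lie above 1 and Sprr2k lies below it.

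Sprr4, a gene known from stressed skin, was at 2, 0, 1, 5 and 10 counts in the buccal and 3, 1, 2, 1 and 0 counts in the palatal libraries, too few to be tested. All 15 Sprr genes together summed to 7269 ± 563.9 CPM buccal and 2505 ± 249.4 CPM palatal (SD, n = 5 each), a ratio of 2.90 with no overlap. Sprr3 made up 67.4% of that sum buccal and 60.7% palatal, with overlapping ranges, and Sprr1 28.3% buccal and 36.9% palatal, without overlap.

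The Lce1 genes, whose products are late envelope precursors best known from epidermis, were higher in palatal epithelium in all 13 genes tested, with no overlap between the sides in any of the 13. Lce1d, the highest in level, stood at 123.2, 127.6, 145.6, 146.5 and 170.5 CPM in buccal libraries 1 to 5 and at 296.1, 233.7, 234.7, 298.3 and 318.2 CPM in palatal libraries 1 to 5. The means were 142.7 ± 18.7 and 276.2 ± 39.3 CPM (SD, n = 5 each), with a log2 fold change of 0.95 ± 0.11 (edgeR adjusted p = 6.31e-06). Lce1a1 stood at 89.7, 80.6, 92.6, 105.7 and 117.4 CPM buccal and at 214.2, 190.1, 183.8, 197.2 and 210.6 CPM palatal, a log2 fold change of 1.03 ± 0.09 (edgeR adjusted p = 6.76e-07). A difference between these 2 genes in how far they moved did not pass: their within-library log2 ratio was 0.55 ± 0.10 buccal and 0.46 ± 0.14 palatal (SD, n = 5 each, exact permutation p = 0.254, adjusted 0.296).

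Lce1a2 stood at 83.1, 78.2, 89.5, 107.0 and 124.8 CPM buccal and at 176.2, 168.2, 144.2, 202.8 and 185.7 CPM palatal, a log2 fold change of 0.86 ± 0.12 (edgeR adjusted p = 7.79e-05). Lce1c stood at 81.6, 75.3, 84.6, 100.8 and 110.6 CPM buccal and at 160.6, 149.3, 138.9, 150.3 and 165.5 CPM palatal, a log2 fold change of 0.75 ± 0.10 (edgeR adjusted p = 2.35e-05). Lce1b stood at 75.5, 66.2, 74.7, 93.3 and 102.6 CPM buccal and at 166.9, 143.8, 146.0, 156.9 and 165.2 CPM palatal, a log2 fold change of 0.92 ± 0.11 (edgeR adjusted p = 7.74e-06). In each of these 3 genes buccal 2 was the lowest and buccal 5 the highest buccal library, and buccal 5 was the highest in all 13 Lce1 genes tested.

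The other 8 Lce1 genes tested had mean levels of 19.1 to 66.9 CPM buccal and 49.4 to 131.9 CPM palatal. The largest log2 fold changes of the subfamily were those of Lce1l (1.53 ± 0.10, from 19.1 to 55.3 CPM, edgeR adjusted p = 1.60e-08), Lce1j (1.43 ± 0.10, from 31.2 to 84.2 CPM) and Lce1g (1.35 ± 0.09, from 51.6 to 131.9 CPM). The smallest was that of Lce1k (0.67 ± 0.11, edgeR adjusted p = 2.55e-04). Lce1m, which lies apart from the other Lce1 genes beyond the Lce3 genes, had 41 counts over the buccal and 27 over the palatal libraries and was not tested.

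The Lce3 genes, which lie next to the Lce1 genes and encode precursors known from inner lining epithelium and wounded skin, were lower in palatal in all 6 genes. Lce3e stood at 242.5, 179.3, 288.2, 333.0 and 310.0 CPM in the buccal and at 96.6, 114.6, 103.0, 109.2 and 113.4 CPM in the palatal libraries. Its means were 270.6 ± 61.0 and 107.4 ± 7.54 CPM (SD, n = 5 each), with no overlap and a log2 fold change of -1.33 ± 0.14 (edgeR adjusted p = 3.81e-06). Lce3f, its near-copy, stood at 217.5, 138.1, 206.7, 284.6 and 270.8 CPM buccal and at 70.4, 98.6, 75.4, 90.5 and 88.7 CPM palatal, a log2 fold change of -1.40 ± 0.17 (edgeR adjusted p = 4.04e-05). The log2 ratio of the pair differed between the sides by 0.06, which did not pass (exact permutation p = 0.429, adjusted 0.429), and reads that fit both genes can have been divided between them.

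Lce3b stood at 179.8, 140.1, 181.9, 236.7 and 233.6 CPM buccal and at 95.1, 119.4, 97.1, 123.2 and 116.2 CPM palatal, with no overlap and a log2 fold change of -0.82 ± 0.13 (edgeR adjusted p = 2.30e-04). In Lce3c (165.6, 106.7, 154.0, 215.3 and 208.4 CPM buccal against 86.6, 115.6, 89.8, 102.3 and 92.6 CPM palatal) the log2 fold change was -0.80 ± 0.16 (edgeR adjusted p = 0.00178). Lce3a stood at 148.4, 85.8, 122.0, 179.8 and 176.0 CPM buccal and at 73.0, 104.6, 78.4, 85.2 and 78.2 CPM palatal, a log2 fold change of -0.76 ± 0.18 (edgeR adjusted p = 0.00589). In Lce3c and Lce3a the overlap of the sides was that of 1 pair of libraries, buccal 2, the lowest buccal one, being below palatal 2, the highest palatal one. Lce3d was the lowest of the subfamily, at 24.2 ± 6.59 CPM buccal and 8.86 ± 1.65 CPM palatal (SD, n = 5 each), with a log2 fold change of -1.45 ± 0.18 (edgeR adjusted p = 2.86e-05). Lce6a had 0 counts over the buccal and 3 over the palatal libraries, at or under a floor of 3 counts, so no fold is given.

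Summed over genes, the 2 Lce subfamilies differed between the sides in opposite directions. Lce1 CPM summed to 864.8 ± 134.5 buccal and 1734 ± 131.8 palatal (a palatal to buccal ratio of 2.00) and Lce3 CPM to 1025 ± 244.9 buccal and 492.4 ± 53.9 palatal (SD, n = 5 each, a buccal to palatal ratio of 2.08), without overlap in either. All Lce CPM together summed to 1890 ± 365.2 buccal and 2226 ± 131.7 palatal, with overlapping ranges. The Lce1 share of Lce CPM was 46.2% ± 3.84 buccal and 77.8% ± 2.49 palatal (SD, n = 5 each), and the ratio of the Lce1 sum to the Lce3 sum was 0.803, 1.09, 0.844, 0.718 and 0.870 in the buccal and 4.31, 2.91, 3.46, 3.37 and 3.75 in the palatal libraries. Buccal 2 was the buccal library with the ratio nearest to the palatal side.

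**Figure D5:**
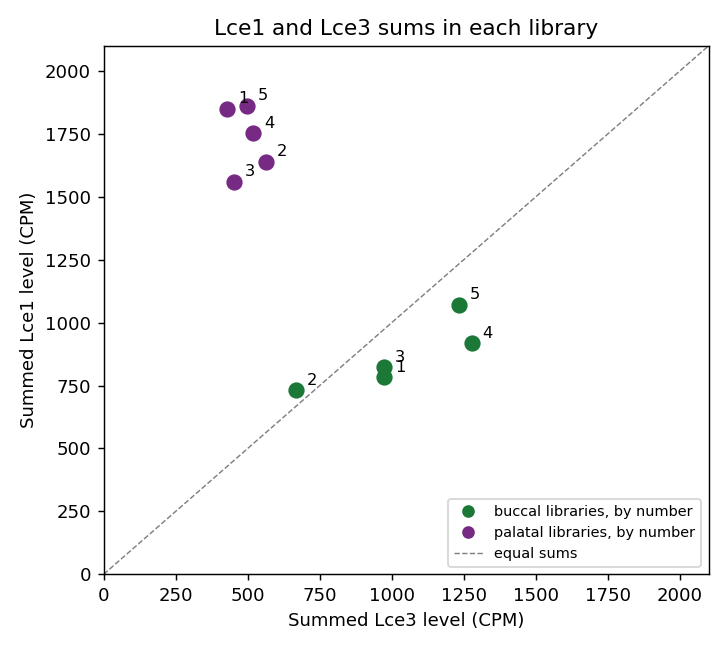
Summed CPM of the 14 Lce1 genes (y axis) against summed CPM of the 6 Lce3 genes (x axis) in each library, numbered, with the dashed line at equal sums. The 5 palatal libraries lie at Lce1 sums of 1561 to 1863 and Lce3 sums of 429.1 to 564.1 CPM, and the 5 buccal libraries at 730.4 to 1072 and 667.4 to 1278 CPM.

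Ratios between the leading genes of each subfamily show which differences were unequal. The log2 ratio of Lce1d to Lce3e was -0.90 ± 0.26 buccal and 1.35 ± 0.24 palatal (SD, n = 5 each), a difference of 2.25. Lce1d differed by 2.39 relative to Sprr1a, by 2.63 relative to Sprr3 and by 4.79 relative to Sprr2a3, and Sprr2a3 stood apart in turn, with differences of 2.40 for Sprr1a and 2.54 for Lce3e relative to it. All of these had an exact permutation p of 0.00794 (adjusted 0.0139) and no overlap. For the ratios of Lce1d this outcome was fixed in advance. Lce1d was higher and the other gene lower in palatal, each without overlap, so these p-values add nothing to the single-gene calls. Sprr2a3 relative to Sprr3 differed by -2.16 and Lce3e relative to Sprr3 by 0.39 (exact permutation p = 0.0159 and adjusted 0.0223 each), with overlapping ranges. Lce3e relative to Sprr1a differed by 0.14 (-2.78 ± 0.32 buccal and -2.65 ± 0.10 palatal, SD, n = 5 each, exact permutation p = 0.373, adjusted 0.402). Of the 14 ratios computed, 11 passed an adjusted p of 0.05, among them the ratios of Lce1d whose outcome was fixed. The ratios share genes and are not independent.

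The other genes of the epidermal differentiation complex, which include further envelope precursors and S100-fused proteins, were called in both directions. Of 13 tested, 8 were higher, 4 lower and 1 did not pass (against 18.7% higher and 20.3% lower of all genes tested), with a median log2 fold change of 0.96. The highest in level were Rptn (repetin, 0.83 ± 0.17, edgeR adjusted p = 0.00117), Lor (loricrin, the main epidermal precursor, -0.58 ± 0.12, adjusted p = 0.00169), Crnn (cornulin, 5.12 ± 0.16), Hrnr (hornerin, 3.37 ± 0.13), Kprp (0.96 ± 0.13) and Flg (filaggrin, 2.90 ± 0.10). Crnn went from 169.9 to 5913 CPM and Hrnr from 408.4 to 4225 CPM, beside log2 differences of 0.67 to 1.53 for the Lce1 genes of the same gene cluster.

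Of 13 envelope crosslinking, scaffold and late differentiation genes, 2 were higher, 8 lower and 3 did not pass (against 18.7% higher and 20.3% lower of all genes tested), and their median was -0.34. Tgm3, a transglutaminase that crosslinks Sprr proteins, was at 5734 CPM buccal and 4517 CPM palatal (-0.34 ± 0.10, edgeR adjusted p = 0.0110). Dmkn (dermokine, -0.37 ± 0.09), Ppl (periplakin of the scaffold, -0.40 ± 0.13) and Asprv1 (a filaggrin-processing protease, -0.68 ± 0.16) were lower, and Sbsn (suprabasin, 0.70 ± 0.09) and Cdsn (corneodesmosin, 1.01 ± 0.12) were higher. The log2 differences of the list ran from -1.16 to 1.01, beside -1.44 for Sprr1a and -1.69 for Sprr3.

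Of 24 transcription factors of keratinocyte differentiation or of Sprr and Lce genes, 6 were higher, 7 lower and 11 did not pass, with a median log2 fold change of -0.05. These counts lie near the 18.7% and 20.3% of all genes tested and are no result about the list. The highest in level were Ehf (an Ets factor of epithelia, 0.29 ± 0.10, edgeR adjusted p = 0.0397), Klf4 (a barrier regulator, 0.61 ± 0.13, adjusted p = 0.00158), Nfe2l2 (NRF2, the regulator of antioxidant genes, 0.35 ± 0.09, adjusted p = 0.00535) and Zfp750 (a differentiation regulator, 0.31 ± 0.06, adjusted p = 9.04e-04), all higher. Jun, an AP-1 subunit, and Trp63, the basal keratinocyte regulator, did not pass (0.11 ± 0.19 and 0.13 ± 0.10). Among the 7 lower ones, named after their values were seen, were Stat3 (-0.70 ± 0.06), Stat6 (-0.40 ± 0.06) and Elf3 (-1.09 ± 0.20). Of 8 NRF2 target genes, 2 were higher, 4 lower and 2 did not pass (against 18.7% higher and 20.3% lower of all genes tested). Their median log2 fold change was -0.28. Gclc was higher (0.52 ± 0.10), Nqo1 (-1.15 ± 0.08), Gclm (-0.90 ± 0.06) and Slc7a11 (-0.64 ± 0.20) were lower, and Hmox1 and Srxn1 did not pass (0.07 ± 0.15 and 0.12 ± 0.06).

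Genes known to respond to interleukin 4 and 13, cytokines known to induce Sprr2 genes in other epithelia, numbered 13, of which 9 were tested. Of these, 1 was higher, 4 were lower and 4 did not pass (against 18.7% higher and 20.3% lower of all genes tested), with a median log2 fold change of -0.24. Chil4, a chitinase-like gene, stood at 6147, 10623, 1020, 2650 and 4553 CPM in buccal libraries 1 to 5 and at 152.3, 505.5, 175.6, 77.8 and 75.3 CPM in palatal libraries 1 to 5 (log2 fold change -4.66 ± 0.84, edgeR adjusted p = 0.00221). Alox15, a lipoxygenase, stood at 581.3, 1019, 207.3, 236.9 and 334.4 CPM buccal and at 34.0, 52.8, 36.1, 21.2 and 20.4 CPM palatal (-3.85 ± 0.55, adjusted p = 5.34e-04). Both were highest in buccal 2 and lowest in buccal 3 on the buccal side and highest in palatal 2 and lowest in palatal 5 on the palatal side, as was Sprr2a3. The other lower genes of the list were Chil3 (-3.04 ± 1.02, edgeR adjusted p = 0.0440) and Ccl11 (-3.50 ± 1.15, adjusted p = 0.0399). Both were also highest in buccal 2 but shared only part of the rest of that order. Chil3 was lowest in palatal 5, but also lowest in buccal 4 and highest in palatal 3. Ccl11 was highest in palatal 2 and lowest in buccal 3 and buccal 4 (0.483 CPM each), but lowest in palatal 1. Of the remaining genes, Arg1 was higher (0.27 ± 0.10, edgeR adjusted p = 0.0400). Its order on the buccal side was the reverse, lowest in buccal 2 (590.6 CPM) and highest in buccal 3 (813.4 CPM). On the palatal side Arg1 was highest in palatal 5 (939.1 CPM). The receptor genes Il13ra1 and Il4ra did not pass (0.03 ± 0.06 and -0.24 ± 0.11). The count of 5 past the threshold fell to 2 without buccal 1 or 2 or without palatal 1, 4 or 5, and to 3 without palatal 2.

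The 250 bases before the RefSeq start of a member (GRCm38.p6) were searched for 7 motifs on both strands, and 34 of 36 members had a window. The AP-1 motif TGANTCA was found in 6.75% of all 32851 windows of that length, in 2 of 2 Sprr1, in 7 of 10 Sprr2 and in none of 13 Lce1 and 6 Lce3 windows. Both Sprr1 windows are shown because the genes differed in their values, and that of Sprr3 because it is the highest member. Capitals mark matches to the AP-1 motif, to the antioxidant response element TGACNNNGC (10.2% of all windows) and to TATAAA (12.4%). In Sprr1a, the antioxidant match, 148 bases before the start, overlaps the AP-1 match 146 bases before it.
Sprr1a, chr3:92485882-92486131, minus strand: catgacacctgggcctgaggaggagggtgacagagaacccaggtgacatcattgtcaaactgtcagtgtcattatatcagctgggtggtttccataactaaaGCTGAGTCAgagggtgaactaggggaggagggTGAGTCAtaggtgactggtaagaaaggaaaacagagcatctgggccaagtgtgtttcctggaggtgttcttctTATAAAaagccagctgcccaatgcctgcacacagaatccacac
Sprr1b, chr3:92438780-92439029, minus strand: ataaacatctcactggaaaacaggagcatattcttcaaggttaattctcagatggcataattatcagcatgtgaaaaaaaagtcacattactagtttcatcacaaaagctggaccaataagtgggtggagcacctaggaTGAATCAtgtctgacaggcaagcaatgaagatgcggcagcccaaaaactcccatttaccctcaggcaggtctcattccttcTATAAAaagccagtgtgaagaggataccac
Sprr3, chr3:92458721-92458970, minus strand: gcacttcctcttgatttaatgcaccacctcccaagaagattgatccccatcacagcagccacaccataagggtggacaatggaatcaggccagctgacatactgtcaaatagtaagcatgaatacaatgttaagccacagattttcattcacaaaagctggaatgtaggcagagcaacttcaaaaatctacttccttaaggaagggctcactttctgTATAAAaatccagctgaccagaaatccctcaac

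Sprr1a has AP-1 matches 146 and 116 bases before the start and Sprr1b 1 match 111 bases before it, and no match was found in these letters of Sprr3. Among Sprr2 genes, the octamer ATGCAAAT (1.60% of all windows) was found in Sprr2b, Sprr2d, Sprr2e, Sprr2f, Sprr2h, Sprr2i and Sprr2k, the same 7 that have the AP-1 motif. They include Sprr2i and Sprr2k, which were lower in palatal, and Sprr2d and Sprr2f, which did not pass. The STAT6 motif (TTC and GAA separated by 4 bases, 5.85% of all windows) was found in the 3 Sprr2a copies and in no other member's window. Sprr2i and Sprr2a3 are shown as examples of these kinds, chosen after their values were seen, with capitals for matches to AP-1, octamer, STAT6 and TATAAA. The Sprr2a3 window lies before the start of its longer transcript, and GENCODE M21 lists another transcript that starts 3149 bases further along. For Sprr2a2 it lists 2 transcripts whose starts lie 34827 bases apart. Only 1 window per member was searched, so whether the matches of the Sprr2a copies depend on the start used was not tested.
Sprr2i, chr3:92407741-92407990, plus strand: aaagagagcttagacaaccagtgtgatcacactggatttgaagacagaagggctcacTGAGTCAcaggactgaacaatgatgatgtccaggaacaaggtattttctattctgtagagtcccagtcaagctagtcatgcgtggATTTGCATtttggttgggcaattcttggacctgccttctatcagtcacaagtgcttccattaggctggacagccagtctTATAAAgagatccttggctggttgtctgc
Sprr2a3, chr3:92285054-92285303, plus strand: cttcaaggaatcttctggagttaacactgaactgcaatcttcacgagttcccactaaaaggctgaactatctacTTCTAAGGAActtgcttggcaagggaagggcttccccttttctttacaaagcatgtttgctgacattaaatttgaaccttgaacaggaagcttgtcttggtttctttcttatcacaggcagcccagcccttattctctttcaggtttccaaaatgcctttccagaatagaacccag

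The Lce windows of the leading gene of each subfamily are shown because the 2 subfamilies differed in opposite directions, Lce3e having been chosen after its values were seen. Each has 1 match to the antioxidant response element, 73 bases before the start in Lce1d and 95 bases before it in Lce3e. Each also has 1 match to TATAAA, and both kinds are marked in capitals. The TATAAA match lies 30 bases before the start in Lce1d. In Lce3e it lies 243 bases before the start and on the opposite strand (TTTATA in the letters shown), so the 2 matches are not alike in place. Over the subfamilies, the antioxidant match was found in 1 of 13 Lce1 and 3 of 6 Lce3 windows. The Ets motif AGGAAG (29.5% of all windows) was found in 7 of 13 Lce1 and 3 of 6 Lce3 windows and is not marked, and the Klf motif CCACACCC (3.20% of all windows) in none of the members' windows.
Lce1d, chr3:92687211-92687460, minus strand: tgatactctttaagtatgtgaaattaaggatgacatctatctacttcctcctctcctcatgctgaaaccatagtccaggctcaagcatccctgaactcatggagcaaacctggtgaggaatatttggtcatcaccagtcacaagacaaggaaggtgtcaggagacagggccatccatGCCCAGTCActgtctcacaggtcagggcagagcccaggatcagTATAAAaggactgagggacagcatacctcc
Lce3e, chr3:92966811-92967060, plus strand: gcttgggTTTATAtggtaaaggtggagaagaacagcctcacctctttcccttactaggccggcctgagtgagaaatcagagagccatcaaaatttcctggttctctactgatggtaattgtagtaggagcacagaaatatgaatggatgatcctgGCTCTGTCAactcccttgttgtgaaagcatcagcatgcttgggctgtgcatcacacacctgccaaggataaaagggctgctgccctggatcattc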

How the data were processed

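Stranded KAPA libraries of polyadenylated RNA were read from 1 end over 122 bases, per the labels' protocols. GRCm39, DESeq2 1.36.0, HTSeq 2.01, TopHat2 2.1.1 and cutadapt 2.10 are named, per the submitters' processing notes, with neither roles nor order. How reads were counted, and with which strand setting, is not given in the sources used here. Raw counts are what the authors deposited, per the file headers, beside DESeq2-normalized values of the authors, which are a signal that equals each count over 1 size factor of its library. Of 55414 genes, 6250 were blank in every library. Columns of other samples numbered 0. The series' design text speaks of pooled GF and SPF mice, which is not analysed here, and neither status is named for these libraries.

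Genes were kept by filterByExpr (minimum count 10), scaled by TMM and compared by the quasi-likelihood F-test of edgeR (robust, two-sided), with p-values adjusted by Benjamini-Hochberg over all 14062 genes tested (R 4.3.3 with edgeR 4.0.16, DESeq2 1.42.0 and limma 3.58.1; Python 3.11.15 with scipy 1.17.1). At least 99.92% of the counts of every library lay in tested genes. Standard errors are log2 fold changes over the square root of F. Within-library ratios add 0.5 CPM to each level, are taken between the 2 highest members of a subfamily and between the highest members of subfamilies, and were compared by an exact permutation test. The edgeR test was first tried on simulated data. The labels name no molecular identifiers, so reads are not taken as independent molecules, and floors cover counting error only.

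The members and lists were chosen with earlier results of these data known. Per-library values are given for all tested members of subfamilies with up to 5, and otherwise for the 5 highest in mean CPM, and up to 6 genes of each other list are named by mean CPM. The alternatives tried were other scalings (RLE, upper quartile, library totals), filters, tests (DESeq2, limma-voom, limma on the log2 deposited values plus 1), a replicate block, each library left out, number 2 of both sides left out, a test against a fold of 1.5 and an FDR of 0.01. GENCODE M21 and RefSeq tables are of GRCm38.p6, another build than the counts, and were used only for gene order, transcript length and sequence, matched by gene. Lengths are those of all annotated exons of a gene joined, and per-length levels are not compared for the Sprr2a copies.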

Additional observations from a re-analysis of the deposited data

Results flagged for a closer look

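Each side of each of the 33 tested members (66 groups of 5 libraries) was examined for 1 library far from the other 4, by a gap of over 0.71 of the whole range (Dixon's critical value). A total of 7 groups met it, each by a high value. The nominal chance rate of about 1 in 20 assumes normally distributed, independent groups. These groups hold untransformed CPM of genes that partly vary together, so the 7 cannot be set against that rate. Of these, 4 were in buccal 2, all in Sprr2 genes. Sprr2i stood at 57.3 CPM there against 11.4 to 21.5 CPM in the other buccal libraries, Sprr2g at 9.09 against 2.09 to 3.96 CPM, Sprr2b at 10.5 against 0.419 to 2.02 CPM and Sprr2a2 at 8.20 against 1.07 to 2.83 CPM. Sprr2b was also high in palatal 2, at 0.989 against 0.199 to 0.397 CPM. Outside the Sprr2 genes, Sprr3 stood at 1868 CPM in palatal 5 against 1390 to 1483 CPM in the other palatal libraries, and Lce1l at 23.1 CPM in buccal 5 against 17.4 to 18.8 CPM in the other buccal libraries. Their causes were not tested.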

How the results depend on the processing

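No member changed direction under any alternative run. All 19 tested Lce genes kept their calls under each alternative except a test against a fold of 1.5, where 13 passed and the 6 lower ones became 3. The count of Sprr calls (11, with Sprr2a1 and Sprr2a2, which could be tested only by being lower in palatal, among them) was 9 without a filter, at an FDR of 0.01 and against a fold of 1.5, 10 by limma-voom, and 9 to 11 with 1 library left out. It was also 9 under a filter of 1 CPM in 5 libraries, which left Sprr2a1 and Sprr2b untested and lost no call of a tested member. Without number 2 of both sides it was 11. Over members and alternatives, 25 calls were lost and 1 gained, and adjusted p ranged from 0.00125 to 0.239 for Sprr2g and from 6.04e-04 to 0.175 for Sprr2b, the 2 whose calls were lost most often. Against a fold of 1.5, 1491 of all genes passed in place of 5474, and of the other lists 4 of the envelope genes in place of 10, 2 transcription factors in place of 13 and 2 NRF2 targets in place of 6. The 5 calls among interleukin 4 and 13 response genes became 3 without a filter and without number 2 of both sides, 2 against a fold of 1.5 and at an FDR of 0.01, and 2 to 5 with 1 library left out. The cause of these changes was not tested, beyond the stricter threshold of the fold test and the FDR of 0.01. With 1 library left out, all genes gave 4916 to 5399 calls and the ratios 10 to 11. At an FDR of 0.01, 3829 genes passed.

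The replicate numbers of the titles were not shown to pair the libraries: same-numbered buccal and palatal deviations from the side means correlated at 0.328, 0.0632, -0.0226, 0.205 and 0.0629, and not every library correlated best with its own number (buccal 2 with palatal 5, 0.131). With the number as a replicate block, 12 Sprr (Sprr2a1 and Sprr2a2 again among them) and 19 Lce genes passed, the added one being Sprr2f (-0.58, edgeR adjusted p = 0.0425), and 5518 of all genes. Depth limits Sprr4, Lce1m and Lce6a, which were too low to test, and the palatal values of Sprr2a1 and Sprr2a2.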

Other observations

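The remaining tested genes of the epidermal differentiation complex list, outside the 6 named in the report, were as follows. Ivl, an early envelope precursor, was higher in palatal (log2 fold change 1.86 ± 0.13, edgeR adjusted p = 4.47e-08), as were Tchh (trichohyalin, 2.19 ± 0.08) and Flg2 (3.87 ± 0.15, from 1.67 to 24.6 CPM). Pglyrp3 and Pglyrp4, which encode peptidoglycan recognition proteins, were lower (-0.97 ± 0.11 and -0.87 ± 0.09, edgeR adjusted p = 5.67e-06 and 1.78e-06), as was Crct1, a cysteine-rich gene (-1.17 ± 0.18, from 364.1 to 161.9 CPM). Prr9 did not pass (-0.91 ± 0.38, edgeR adjusted p = 0.0720).

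The Sprr and Lce genes together took 0.930% ± 0.0681 of all counts buccal and 0.465% ± 0.0267 palatal (SD, n = 5 each), without overlap.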
